A study of Mus musculus with 4 samples.

Results

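The 8 genes described here are Ccn1, Ccn2, Ccn3, Ccn4 and Ccn5 of the CCN family, the transcriptional co-activators Yap1 and Wwtr1, and Ankrd1, a gene widely read as a marker of their activity, out of 30406 genes listed in all 4 libraries. They were picked as a family and a pathway, and Ccn2 was also chosen by its measured ratio between TNF-Tg and WT in LMC-like cells, where it stood among the 5 largest falls, so that ratio is a description and not a finding. All 8 were found by Ensembl identifier, since 1 of the libraries lists the CCN genes under their older symbols (Cyr61, Ctgf, Nov, Wisp1, Wisp2). Ccn6, the remaining family member, was read the same way.

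In the GENCODE annotation of GRCm38 the CCN genes lie at chr3:145646976-145649981 (minus strand) for Ccn1, chr10:24595442-24598683 (plus strand) for Ccn2, chr15:54745702-54754039 (plus strand) for Ccn3, chr15:66891320-66923201 (plus strand) for Ccn4 and chr2:163820861-163833146 (plus strand) for Ccn5, of which Ccn3 and Ccn4 share a chromosome. Ankrd1 lies at chr19:36111961-36120099 (minus strand), Yap1 at chr9:7931999-8004596 (minus strand) and Wwtr1 at chr3:57455649-57575910 (minus strand). Droplet counts of this kind are summed over the whole gene and do not resolve exons or isoforms.

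Single-cell RNA was read by 10x droplets in the popliteal lymphatic vessels and superficial saphenous veins of the mouse lower limb, in 4 libraries that each pooled 3 mice. The libraries tdT1 and tdT2 are replicates of sorted tdTomato-positive cells of Cspg4-Cre;Ai9-tdTomato mice, in which the Cspg4 promoter drives Cre and marks every cell whose lineage has used it. Per the study, tdT1 was sorted through a narrower nozzle and read on another sequencer than the other libraries. Cell collection was changed after tdT1 to improve viability. Differences between tdT1 and tdT2 therefore also hold these changes. WT and TNF-Tg are 1 library each of unlabelled cells sorted by scatter from 9-month-old male Wild-Type C57BL6 mice and from male TNF-Tg mice of the same age, which overexpress human TNF and develop arthritis. The tdT libraries pooled male and female mice, and all mice were kept on a C57BL/6J background. Sort and reporter differ between the tdT libraries and the other two, and genotype is carried by 1 library, so library and genotype cannot be told apart.

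CCN proteins are secreted into the matrix around a cell and bind integrins, LRP receptors and heparan sulphate proteoglycans such as syndecan 4, through which they alter adhesion, growth factor signalling and matrix deposition. Ccn1 and Ccn2 are textbook targets of YAP1 and WWTR1 (also called TAZ), co-activators that enter the nucleus when a cell is stretched, spread or on stiff matrix and when the Hippo kinases are inactive, and that reach DNA through TEAD factors. Actin tension drives a parallel route through SRF and its MRTF co-activators. Vessel wall cells carry both routes, since pressure and flow load them all the time.

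The sequences where such a TEAD factor could sit come first, because the members are read as targets or as parts of that pathway. RefSeq promoter windows were at hand for Ccn1, Ankrd1, Yap1, Wwtr1 and Ccn6, and none was held for Ccn2, Ccn3, Ccn4 and Ccn5. Each window below is the 250 bases before the RefSeq start, 5′ to 3′ on the strand of the gene, in the build GRCm38.p6. The RefSeq start of Ankrd1 lies inside the GENCODE gene given above, so its window falls within that gene. Capitals mark the TEAD core motif, GGAATG or its reverse complement CATTCC.

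Ccn1 (chr3:145649986-145650235, minus strand): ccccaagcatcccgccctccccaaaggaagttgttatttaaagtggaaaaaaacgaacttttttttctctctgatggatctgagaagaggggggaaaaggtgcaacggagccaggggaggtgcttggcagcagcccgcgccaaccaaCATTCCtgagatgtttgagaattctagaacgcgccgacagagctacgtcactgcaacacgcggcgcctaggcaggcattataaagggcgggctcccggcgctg
Ankrd1 (chr19:36119845-36120094, minus strand): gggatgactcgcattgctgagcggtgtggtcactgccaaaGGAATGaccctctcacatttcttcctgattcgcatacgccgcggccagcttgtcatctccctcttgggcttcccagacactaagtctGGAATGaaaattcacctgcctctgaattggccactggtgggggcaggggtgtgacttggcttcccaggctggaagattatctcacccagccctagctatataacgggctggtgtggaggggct
Yap1 (chr9:8004597-8004846, minus strand): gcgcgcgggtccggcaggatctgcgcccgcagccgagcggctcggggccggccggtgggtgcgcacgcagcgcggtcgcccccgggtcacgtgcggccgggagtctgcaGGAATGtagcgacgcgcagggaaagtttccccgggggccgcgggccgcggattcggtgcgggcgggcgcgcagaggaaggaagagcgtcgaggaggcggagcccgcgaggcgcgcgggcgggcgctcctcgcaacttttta
Wwtr1 (chr3:57575911-57576160, minus strand): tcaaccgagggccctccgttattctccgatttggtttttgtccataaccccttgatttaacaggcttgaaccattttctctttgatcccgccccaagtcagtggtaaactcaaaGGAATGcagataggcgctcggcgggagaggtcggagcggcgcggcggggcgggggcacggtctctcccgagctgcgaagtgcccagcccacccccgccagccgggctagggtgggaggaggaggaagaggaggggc

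The motif opened 103 bases before the start in Ccn1, 210 and 123 bases before it in Ankrd1, 141 in Yap1 and 136 in Wwtr1, and the Ccn6 window held none. A second RefSeq start of Wwtr1, whose window is not printed, has the motif 170 bases before it. Of 32851 RefSeq windows of the same length, 12.6% held it on either strand. The AP-1 motif TGANTCA, present in 6.75% of those windows, and the CArG box of SRF, present in 1.47%, were found in none of the 4 windows printed. A match of 6 letters describes the sequence and is no measured site of binding.

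Cells were sorted into 2 stromal classes by summed marker genes. The LMC-like class was named for lymphatic muscle cells and gated on 10 genes (Myoc, Pi16, Fndc1, Dpp4, Pla1a and others). The VSMC-like class was named for vascular smooth muscle cells and gated on another 10 (Cxcl14, Mgp, Gdf10, Gas6, Fmo2 and others). Both names follow the study, which rests them on Cald1, Tpm1, Pdgfrb and other genes and on reporter mice. It also reports limited Acta2, Myh11 and Tagln. The genes that define contractile smooth muscle were scarce here too and do not bear the names out, although Des was higher in LMC-like cells in the class contrast below (log2 fold change 3.31). Summed over Acta2, Myh11, Tagln, Cnn1, Actg2 and Des, the 4 LMC-like sums held 10.6 to 41.9 CPM (UMIs of a gene per 1000000 UMIs of the class) and the VSMC-like sums 2.6 to 9.7 CPM, Actg2 was at 0 in all, and Myh11 was at 0 in LMC-like cells of tdT2, WT and TNF-Tg. The 6 collagen and fibroblast-type genes of the stromal gate, in contrast, summed to 20377 to 46061 CPM, so the 2 names stand here for their gates only.

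The 4 libraries held 10837 cells, of which 661 (tdT1), 83 (tdT2), 1376 (WT) and 507 (TNF-Tg) were LMC-like and 174, 103, 560 and 437 were VSMC-like. Class totals ran from 473666 to 22407209 UMIs, tdT2 being by far the shallowest, and 11 barcodes occurred in more than 1 library. Of the LMC-like cells, 175 of 661 in tdT1 had over 10% mitochondrial UMIs. The counts were 0 of 83 in tdT2, 7 of 1376 in WT and 0 of 507 in TNF-Tg. Libraries stood apart in other genes too. The 14 genes that respond to tissue dissociation summed to 22347 CPM in LMC-like cells of tdT1 against 4569 to 5621 CPM in the other libraries, and to 31543 CPM against 4937 to 9833 CPM in VSMC-like cells. Haemoglobin and other erythroid genes summed to 630 CPM in LMC-like cells of TNF-Tg against 10.0 to 103 CPM elsewhere. Endothelial markers stayed at or below 3.8 CPM in each of the 8 sums. Intervals given below are exact 95% intervals and cover counting error only, and CPM of different genes is not scaled by length, so levels are compared within a gene.

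Ccn1, an immediate-early matricellular protein that binds integrins, differed widely between libraries. In LMC-like cells it stood at 632 CPM (tdT1), 135 CPM (tdT2), 224 CPM (WT) and 162 CPM (TNF-Tg). In VSMC-like cells the same libraries gave 546, 67.2, 174 and 185 CPM. The library tdT1 was highest in both classes, and the replicates of the tdT sort gave a mean of 384 ± 352 CPM (SD, n = 2) in LMC-like cells and 307 ± 339 CPM (SD, n = 2) in VSMC-like cells, an SD about as large as the mean. The same library carried the high dissociation response given above, whose part in the level of Ccn1 was not tested. Inside a library the 2 measures moved together in a smaller way. In WT, cells with a Ccn1 UMI held 1.32 times (LMC-like) and 1.52 times (VSMC-like) the summed dissociation CPM of cells without one, in TNF-Tg 1.29 and 1.60 times, and in tdT1 1.04 and 1.19 times. Deeper cells more often hold a UMI of any gene, so these ratios are a description. Leukocytes of the same libraries held 14.3, 3.31, 5.45 and 2.08 CPM of Ccn1. Single leukocytes held up to 13 Ccn1 UMIs in WT and 11 in TNF-Tg, so these levels are no even background.

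Ccn2, known as connective tissue growth factor and a driver of matrix deposition, was scarce, and in LMC-like cells most of its UMIs came from WT, the largest library. The 4 libraries, in the same order, gave 24, 4, 457 and 18 UMIs of the gene, or 2.95 CPM (1.89 to 4.39), 8.44 CPM (2.30 to 21.6), 20.4 CPM (18.6 to 22.4) and 2.61 CPM (1.55 to 4.13). The intervals of tdT1, tdT2 and TNF-Tg overlapped, and that of WT lay above those of tdT1 and TNF-Tg and met that of tdT2. Set against WT, the level was 6.91-fold lower in tdT1 (log2 difference 2.79, 2.20 to 3.45), 7.81-fold lower in TNF-Tg and 2.42-fold lower in tdT2, where 4 UMIs leave an interval of −0.09 to 3.15 on the log2 scale. Ccn2 was 1 of 30 genes of 11953 (0.251%) at least 2-fold higher in WT than in each of the other libraries in this class. That count includes the ratio of WT to TNF-Tg by which Ccn2 was chosen, so nothing is read from it. A gene without UMIs in a library was set to 3 UMIs, so scarce genes absent from tdT2 could hardly pass. The ratios of WT to tdT1 and tdT2 share the WT value that entered the choice, so they are a description too. By counting error alone tdT1 lay below WT, and tdT2 could not be separated from WT at its depth.

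In VSMC-like cells the order was another one. The libraries tdT1, tdT2, WT and TNF-Tg gave 28, 17, 102 and 38 UMIs of Ccn2, or 17.4 CPM (11.6 to 25.2), 30.9 CPM (17.98 to 49.4), 17.6 CPM (14.4 to 21.4) and 8.36 CPM (5.92 to 11.5). The first 3 overlapped, and TNF-Tg lay below them with intervals that did not meet. Leukocytes held 0, 0, 3 and 3 UMIs of Ccn2 over 205, 181, 2983 and 2130 cells, so the background of Ccn2 in cells that should lack it was close to 0.

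Ccn3 (formerly Nov), a family member that often opposes Ccn2, marked the LMC-like class in each library. LMC-like cells held 80.4 CPM (tdT1), 65.4 CPM (tdT2), 136 CPM (WT) and 99.3 CPM (TNF-Tg). VSMC-like cells held 16.8, 1.82, 12.6 and 3.30 CPM, the second of these from 1 UMI. The lowest LMC-like value exceeded the highest VSMC-like value, and the replicates of the tdT sort lay close in LMC-like cells at 72.9 ± 10.6 CPM (SD, n = 2).

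Ccn5 (formerly Wisp2), the family member that lacks the C-terminal domain of the others and is abundant in resting smooth muscle and fibroblasts, had the opposite pattern. It stood at 39.5, 38.0, 71.6 and 24.1 CPM in LMC-like cells of tdT1, tdT2, WT and TNF-Tg and at 103, 105, 236 and 99.7 CPM in VSMC-like cells. The classes did not overlap, and the tdT replicates differed by less than their counting error, at 38.7 ± 1.03 CPM and 104 ± 1.85 CPM (SD, n = 2 each). WT was the highest library in both classes, and in LMC-like cells of tdT2 the value came from 18 UMIs with an interval of 22.5 to 60.1 CPM. Cells between the gates, which neither gate claimed, held 133, 134, 260 and 126 CPM, above both classes in each library, although only in TNF-Tg did the interval of these cells lie clear of that of VSMC-like cells.

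Ccn4 (formerly Wisp1), a family member induced by WNT signalling, and Ankrd1, a nuclear protein of stretched muscle, could not be followed. Ccn4 gave 0, 0, 1 and 2 UMIs in LMC-like cells and 0, 1, 7 and 4 in VSMC-like cells, Ankrd1 gave 1, 0, 0 and 4 and then 0, 0, 0 and 1, and Ccn6 gave 1, 0, 7 and 0 and then 0, 0, 1 and 0. A count of 3 UMIs corresponded to 0.134 CPM in LMC-like cells of WT and to 6.33 CPM in those of tdT2, so a low level in tdT2 would not have been detectable at this depth. The usual readout gene Ankrd1 therefore says nothing here on YAP1 activity in these cells.

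The co-activators were measured in all 8 sums. Yap1 stood at 28.0, 19.0, 24.1 and 16.7 CPM in LMC-like cells of tdT1, tdT2, WT and TNF-Tg and at 39.8, 21.8, 21.2 and 16.1 CPM in VSMC-like cells. Wwtr1 stood at 70.1, 57.0, 58.1 and 43.0 CPM and at 105, 74.4, 47.1 and 35.4 CPM. For both genes tdT1 was the highest and TNF-Tg the lowest library in each class, while the replicates of the tdT sort differed by more than WT and TNF-Tg did in VSMC-like cells, with a mean of 30.8 ± 12.8 CPM for Yap1 and 89.5 ± 21.3 CPM for Wwtr1 (SD, n = 2 each).

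**Figure D1:**
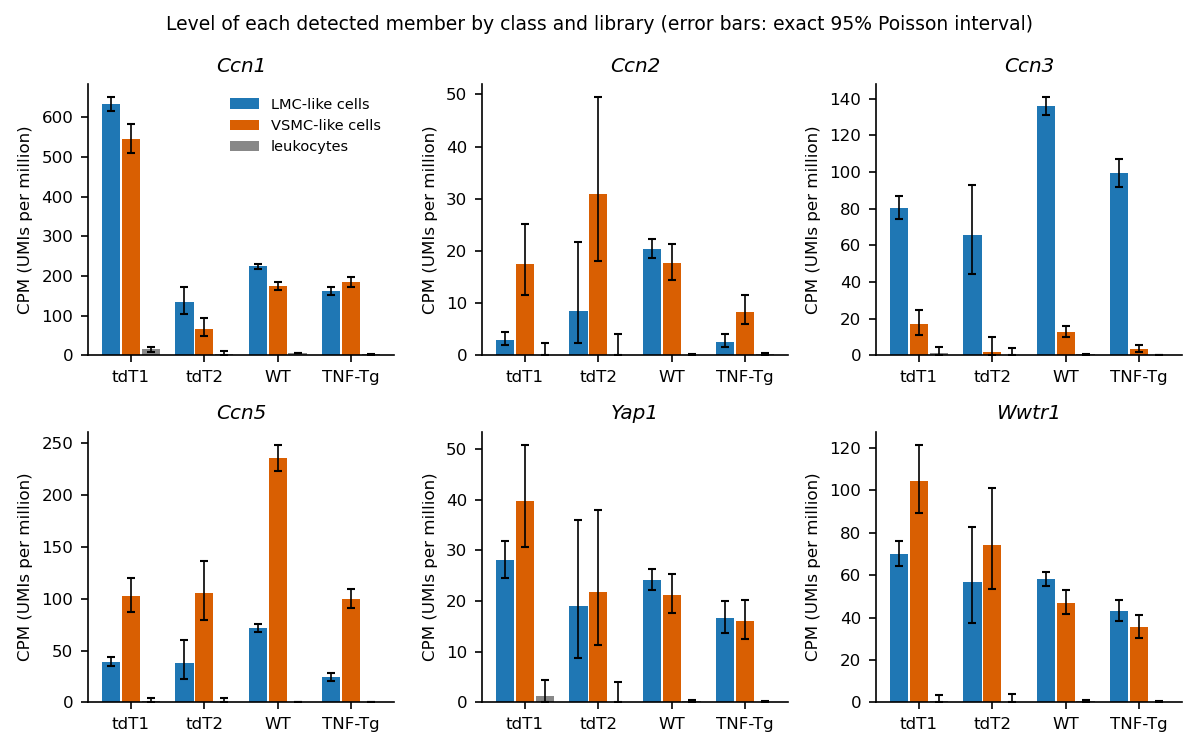
Level of the 6 detected members in LMC-like cells, VSMC-like cells and leukocytes of each library, as bars from 0 in CPM with exact 95% Poisson intervals as error bars, each gene on an axis of its own. Ccn3 is higher in LMC-like and Ccn5 in VSMC-like cells of all 4 libraries, Ccn2 in LMC-like cells is highest in WT at 20.4 CPM, and Ccn1 is highest in tdT1.

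The class contrast used the 4 libraries as replicates, with edgeR's quasi-likelihood test on UMIs summed per class and library and the library as a block. Of 11637 genes tested over all, 737 (6.33%) were higher in LMC-like and 928 (7.97%) higher in VSMC-like cells at an adjusted p under 0.01. Among the 8 members, 6 had counts enough to be tested, and 1 passed in each direction. The gate genes came from marker tables of the study that were made on the WT and TNF-Tg cells and that hold Ccn3 and Ccn5 too, so the p-values describe how the classes separate in these libraries and are not independent of the gates.

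Ccn3 was higher in LMC-like cells by a log2 fold change of 3.44 (SE 0.287, adjusted p = 6.44e-07, edgeR), and in each of 4 libraries, from 2.26 (1.70 to 2.87) in tdT1 to 5.17 (2.59 to 10.52) in tdT2, where VSMC-like cells held 1 UMI. Ccn5 was lower in LMC-like cells by a log2 fold change of −1.79 (SE 0.160, adjusted p = 1.26e-06, edgeR), within −2.05 to −1.38 over the libraries. The 2 genes thus separated the classes in opposite directions, with ranges that stayed on 1 side of 0.

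The other 4 members did not pass. Ccn2 had a log2 fold change of −1.02 (SE 0.369, adjusted p = 0.0609, edgeR), and the outcome turned on WT and on the filter for low counts. The LMC-like over VSMC-like log2 ratio was −2.56 (−3.41 to −1.72) in tdT1, −1.87 (−3.90 to −0.25) in tdT2 and −1.68 (−2.58 to −0.83) in TNF-Tg, against 0.21 (−0.10 to 0.54) in WT. Without WT the log2 fold change was −2.23 with an adjusted p of 1.15e-04, past the threshold, and with all 4 libraries but no filter on low counts it was −0.96 with an adjusted p of 9.76e-05, past it too (both edgeR). The WT and TNF-Tg sums of Ccn2 in LMC-like cells entered its choice. Each of these p-values uses at least 1 of those sums, so none is independent of the choice. Ccn1 had 0.17 (SE 0.180, adjusted p = 0.571, edgeR), with libraries from −0.19 to 1.01. Yap1 had −0.18 (SE 0.160, adjusted p = 0.460) and Wwtr1 −0.15 (SE 0.159, adjusted p = 0.563), both by edgeR, and for both the ratio was below 0 in tdT1 and tdT2 and above 0 in WT and TNF-Tg. A p that misses the threshold does not show that these 4 genes were equal in the classes.

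The comparison of TNF-Tg with WT asks what the arthritic background does to the vessel cells. With 1 library per genotype it has no replicate, so ratios of CPM with counting intervals are given, no p-value is given, and a gene counts as lower or higher from 2-fold on among genes with at least 20 UMIs in the class. In LMC-like cells 666 of 11953 genes (5.57%) were lower and 495 (4.14%) higher, with a median log2 ratio of −0.03 over all of them. In VSMC-like cells 1342 of 10819 genes (12.4%) were lower and 418 (3.86%) higher, with a median of −0.21. The VSMC-like split depended on the scaling, since TMM factors left 887 lower and 705 higher. Ccn2 and Ccn5 were among the lower genes in LMC-like cells, Ccn2, Ccn3 and Ccn5 among those in VSMC-like cells, and no member was among the higher ones. Ccn4 and Ankrd1 were under the count minimum in both classes. Since the choice of members used this contrast, nothing is read from those counts.

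In LMC-like cells Ccn2 had a log2 ratio of −2.97 (−3.73 to −2.29). It was the fifth largest fall among 9930 genes with at least 100 UMIs, just inside the 5, behind Zbtb16 at −3.05, Hmcn1 at −3.06, Gpr165 at −3.85 and Cilp at −5.19, while C1qa at −2.96, Retnla at −2.87 and Gm26802 at −2.84 lay just outside. Among the 11953 genes with at least 20 UMIs it ranked 35, so its place among the first 5 rests on the count minimum. Ccn5 was 2.97-fold lower, at −1.57 (−1.81 to −1.34). The others had log2 ratios of −0.47 (−0.57 to −0.38) for Ccn1, −0.45 (−0.57 to −0.33) for Ccn3, −0.53 (−0.84 to −0.24) for Yap1 and −0.43 (−0.62 to −0.25) for Wwtr1. All 6 lay below the median of all genes. A gene lies below a median as often as above it, and Ccn2 was chosen by this ratio. Nothing is therefore read from that count. Thinned to 3000 UMIs, 14.1% of WT and 13.5% of TNF-Tg LMC-like cells held a Wwtr1 UMI. The gate genes and the stromal gate genes were lower in TNF-Tg LMC-like cells as well, at 8063 against 11264 CPM and 29275 against 39447 CPM, and the erythroid genes higher, at 630 against 10.0 CPM, and the part of these in the members' ratios was not tested.

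In VSMC-like cells Ccn5 had a log2 ratio of −1.24 (−1.40 to −1.09), Ccn3 −1.93 (−2.84 to −1.12, from 73 and 15 UMIs) and Ccn2 −1.07 (−1.65 to −0.52). Yap1 had −0.40 (−0.84 to 0.03), Wwtr1 −0.41 (−0.70 to −0.13) and Ccn1 0.09 (−0.05 to 0.22). Ccn2 and Ccn5 were thus below −1 in both classes. The Ccn2 value in VSMC-like cells was less than 2-fold with TMM factors and, at −0.93, with Seurat clusters in place of the gates, and that of Ccn3 was less than 2-fold, at −0.90 (−2.76 to 0.71), with thinned cells. The VSMC-like gate genes summed to 10062 CPM in TNF-Tg and to 14476 in WT, a change in the same direction whose part was not tested.

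The tdT values of Ccn5 in VSMC-like cells, 103 and 105 CPM, lay beside that of TNF-Tg (99.7 CPM) and below that of WT (236 CPM). In that class 102 of 10819 genes (0.943%) stood at least 2-fold higher in WT than in each of the other libraries, and Ccn5 was among them. That count includes the ratio of WT to TNF-Tg, so nothing is read from it. A gene without UMIs in a library was set to 3 UMIs, so scarce genes absent from tdT2 could hardly pass. The gap of Ccn1 between WT and TNF-Tg LMC-like cells, 224 against 162 CPM, was smaller than the gap between the tdT replicates, 632 and 135 CPM.

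**Figure D2:**
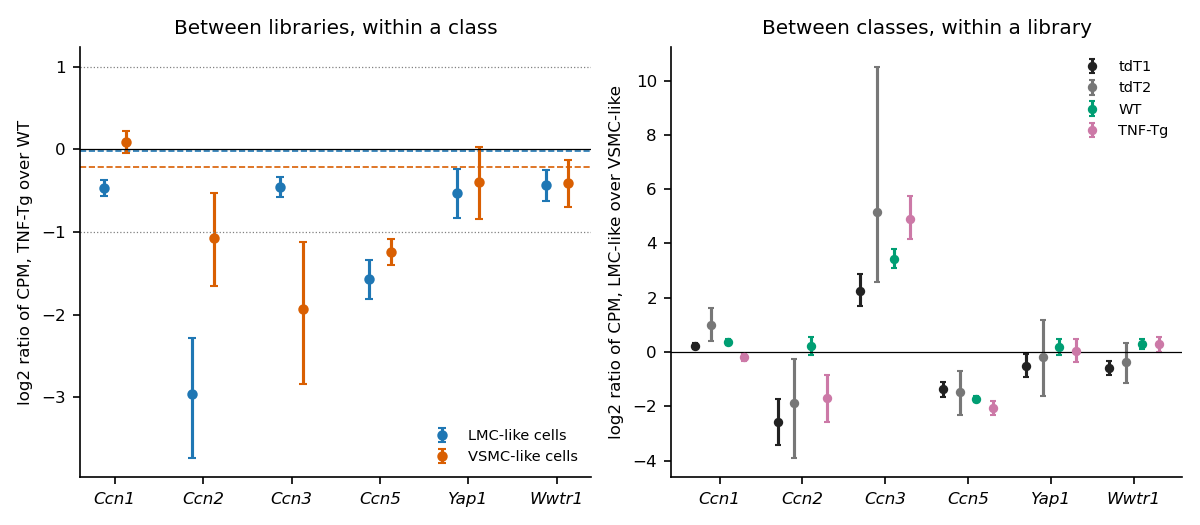
Log2 ratio of CPM of TNF-Tg over WT per class (left) and of LMC-like over VSMC-like cells per library (right) for the 6 detected members, as points with exact 95% conditional binomial intervals. On the left, dashed lines are medians of all genes and dotted lines 2-fold. Ccn2 at −2.97 and Ccn5 at −1.57 lie past the 2-fold line in LMC-like cells, and the class ratio of Ccn2 is below 0 in all libraries except WT.

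The Ccn2 counts of WT LMC-like cells came from few cells. Of 1376 cells, 138 (10.0%) held a UMI, 71 of them a single one and 40 at least 3, and the highest cells held 38, 38 and 25 UMIs. The 14 cells with the most Ccn2, 1% of the class, held 47.7% of its UMIs, against 9.86% for Ccn1, 11.9% for Ccn3 and 13.8% for Ccn5 in the same number of cells. In TNF-Tg 15 of 507 LMC-like cells held a UMI and the maximum was 2. Without the top 1% of cells in each library the ratio of TNF-Tg to WT stayed within its interval in LMC-like cells, whereas in VSMC-like cells it moved from −1.07 to −2.07.

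Thinned to 3000 UMIs each, 4.14% (3.14 to 5.34) of 1354 WT LMC-like cells held a Ccn2 UMI, against 0.596% (0.123 to 1.73) of 503 TNF-Tg cells, 1.20% (0.443 to 2.60) of 498 tdT1 cells and 3.08% (0.375 to 10.7) of 65 tdT2 cells. The interval of WT lay above those of tdT1 and TNF-Tg and within that of tdT2. In leukocytes of WT thinned the same way the share was 0% (up to 0.140). For Ccn5 the thinned shares were 14.5% in WT and 4.97% in TNF-Tg LMC-like cells, and 36.3% and 18.2% in VSMC-like cells, so fewer cells held the transcript in TNF-Tg in both classes.

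**Figure D3:**
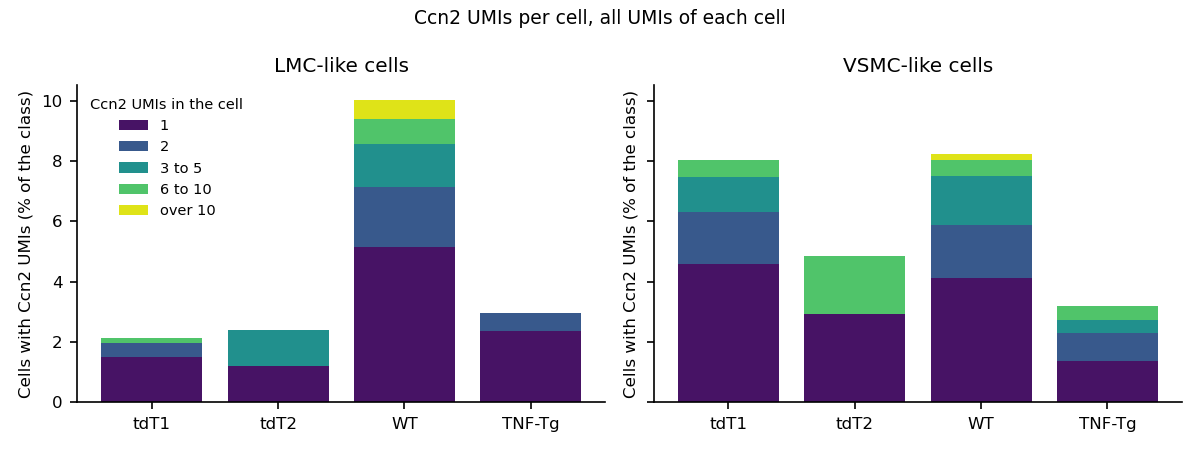
Percent of cells of each class and library that hold Ccn2 UMIs, as stacked bars coloured by the number of Ccn2 UMIs in the cell, with cells taken at their full depth. In WT LMC-like cells 9 cells with more than 10 UMIs hold 39.6% of the Ccn2 UMIs, and TNF-Tg LMC-like cells reach 2 UMIs at most.

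WT LMC-like cells with a Ccn2 UMI differed from those without in named genes, given as a description since the split uses counts of the same cells (median 17473 against 15948 UMIs per cell). Ccn5 stood at 129 CPM in the 138 cells with Ccn2 and 64.6 CPM in the 1238 without it, a log2 difference of 1.00. Of the 138 cells, 33 lay near the gate, with a log2 ratio between the class sums of at most 2. Of all 1376 cells, 1206 exceeded 2. Cells between the gates held 260 CPM of Ccn5 in WT. The part of gate position in the Ccn5 difference was not tested. The other members were closer, with log2 differences of 0.15 for Ccn1, −0.30 for Ccn3, 0.29 for Yap1 and −0.11 for Wwtr1. In thinned WT cells there was a Ccn5 UMI in 26.8% of cells with Ccn2 and in 13.9% of cells without it, and a Ccn2 UMI in 3.06% of cells with Ccn1 and 4.63% of cells without it. The other LMC-like sums, with far fewer cells, differed from WT. Ccn1 stood at 509 against 149 CPM in the 15 and 492 cells of TNF-Tg with and without Ccn2 (log2 difference 1.77, 1.49 to 2.04) and at 899 against 626 CPM in the 14 and 647 cells of tdT1 (0.52, 0.30 to 0.74). The 121 Ccn1 UMIs of those 15 TNF-Tg cells came from 8 of them, and the intervals do not cover spread between cells. Ccn5 was also higher beside Ccn2 in tdT1 (167 against 36.3 CPM), whereas TNF-Tg had 2 UMIs of it beside Ccn2. In WT VSMC-like cells Ccn1 was higher beside Ccn2 (283 against 164 CPM) and Ccn5 lower (163 against 242 CPM). Only 2 LMC-like cells of tdT2 held Ccn2.

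Igfbp3, an insulin-like growth factor binding protein, stood at 324 CPM in cells with Ccn2 and 42.3 CPM in cells without, with a UMI in 36 of 138 and 100 of 1238 cells. That difference was not seen in tdT1 (80.8 CPM in both sets of cells), and in TNF-Tg Igfbp3 stood at 4.21 CPM, from 1 UMI, against 39.4 CPM. Cilp, a cartilage matrix protein, stood at 29.7 and 2.31 CPM, Col12a1, a fibril-associated collagen, at 41.1 and 5.46 CPM, Peg10 at 25.2 and 2.76 CPM, and the histone gene Hist1h2ap at 59.8 and 1.95 CPM. These 5 genes had the largest ratios among genes with at least 50 UMIs in the cells with Ccn2. They were chosen after their values were seen. Of the 138 cells with Ccn2, 14 held Hist1h2ap (147 UMIs), 13 Cilp, 9 Peg10 and 30 Col12a1. Of the TEAD target list described next, 18 genes had enough counts in WT LMC-like cells. Of those, 2 (Igfbp3 and F3) stood at least 2-fold higher beside Ccn2, none stood 2-fold lower, and the median log2 difference was 0.07. In tdT1 3 of 17 stood higher and 0 lower with a median of 0.33, and in TNF-Tg 2 of 16 higher and 1 lower with a median of 0.27. Igfbp3 is also 1 of the 5 genes picked from the WT split. The share of all genes past 2-fold in these splits was not computed, so nothing is read from the list counts.

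Lists of the pathway around the members were read whole, and their counts stand against the shares over all genes. In the class contrast 6.33% of all genes were higher in LMC-like and 7.97% in VSMC-like cells. Between TNF-Tg and WT 5.57% were lower and 4.14% higher in LMC-like cells, and 12.4% and 3.86% in VSMC-like cells. The lists were not counted again with TMM factors, on which the VSMC-like split over all genes depended. List genes near 2-fold in that class could therefore lose their call. The TEAD target list holds 19 genes without Ccn1, Ccn2 and Ankrd1. In the class contrast 18 were tested, 6 were higher in LMC-like cells and 3 in VSMC-like cells, with a median log2 fold change of 0.35 beside −0.02 over all genes. Those higher in LMC-like cells were Gadd45a (2.48), Axl (1.61), Tgfb2 (1.44), Myof (1.32), Nt5e (1.12) and Crim1 (0.67), and those higher in VSMC-like cells F3 (−3.86), Ptpn14 (−2.24) and Fjx1 (−1.40). The list therefore had members on both sides, as Ccn3 and Ccn5 did.

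Between TNF-Tg and WT LMC-like cells 18 of the 19 TEAD targets had counts enough. Of these 3 were lower and 0 higher, beside 5.57% and 4.14% of all genes, and the median log2 ratio was −0.48 beside −0.03 over all genes. Ccdc80, a secreted matrix protein, stood at 802 CPM in TNF-Tg and 2273 CPM in WT (log2 ratio −1.503), and the tdT libraries held 1595 and 414 CPM. Nt5e, the ecto-nucleotidase CD73, had a log2 ratio of −1.14 and the transcription factor Foxf2 −1.09, and Igfbp3 had −0.94. Foxf2 rested on 76 UMIs in WT and 11 in TNF-Tg, with an interval of −2.15 to −0.17. In VSMC-like cells 17 were measured, 2 were lower (Ccdc80 at −2.08, Nt5e at −1.80) and 2 higher (Igfbp3 at 3.71, Gadd45a at 1.35), with a median of −0.49 beside −0.21. Over all genes of this class 12.4% were lower and 3.86% higher. Gadd45a rested on few WT UMIs of this class, 1 in cells with Ccn2 and 7 in those without. Igfbp3 in VSMC-like cells stood at 514, 291, 3.97 and 52.0 CPM in tdT1, tdT2, WT and TNF-Tg, so WT was the low library there, the reverse of Ccn2 in LMC-like cells.

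The Hippo kinases and scaffolds hold YAP1 and WWTR1 outside the nucleus. Amotl2 and Lats2 of this list are in the TEAD target list as well, so the lists are not independent. Of 15 genes 14 were measured in LMC-like cells, 1 was lower in TNF-Tg and 0 higher, beside 5.57% and 4.14% of all genes, with a median log2 ratio of −0.37. The angiomotins, scaffolds that bind YAP1, gave the lowest ratios, with Amot at −1.66, Amotl1 at −0.85 and Amotl2 at −0.76, and the kinase scaffold Sav1 stood at −0.61. In VSMC-like cells 4 of 14 were lower (Amot at −2.42, Frmd6 at −1.80, Wwc2 at −1.12 and Sav1 at −1.05) and 0 higher, beside 12.4% and 3.86% of all genes. The median was −0.75, below the −0.21 of all genes. Wwc2 and Sav1 lay close to the 2-fold line, and TMM factors were not applied to this list. Amot there came from 41 UMIs in WT and 6 in TNF-Tg, with an interval of −3.95 to −1.18. In the class contrast Amotl1 was higher in LMC-like cells by 1.01 and Frmd6 in VSMC-like cells by a log2 fold change of −0.97, and the other 12 did not pass.

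The DNA-binding partners, 4 TEADs with the co-factors Vgll3 and Vgll4, gave no gene past 2-fold in LMC-like cells (5 measured, median −0.24), where Tead2 stood at 0.66, Tead3 at 0.62, Vgll4 at −0.64 and Vgll3 at −0.61. In VSMC-like cells Vgll4 was lower at −1.40 and the median was −0.56. Vgll3 (1.45) and Tead1 (0.64) were higher in LMC-like than in VSMC-like cells in the class contrast.

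Of 10 SRF, MRTF and target genes measured in LMC-like cells 2 were higher in TNF-Tg and 0 lower, beside 4.14% and 5.57% of all genes, and 3 had a ratio below 0. The median log2 ratio was 0.51 beside −0.03 over all genes. Myl9, a myosin regulatory light chain, stood at 17.6 CPM in TNF-Tg and 4.33 CPM in WT (2.02) and the actin crosslinker Actn1 at 3.34 and 0.89 CPM (1.90, from 23 and 20 UMIs), and Flna and Vcl, which tie actin to integrins, had log2 ratios of 0.83 and 0.64. In VSMC-like cells the same Myl9 (2.07) and Actn1 (1.43) were higher, 0 were lower, 4 of 11 had a ratio below 0 and the median was 0.04 beside −0.21 over all genes. In the class contrast Tpm2 (−4.13), Actn1 (−2.02) and Fhl2 (−1.75) were higher in VSMC-like and Zyx (2.21) in LMC-like cells.

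Among 10 CCN receptor genes 8 were measured in LMC-like cells of TNF-Tg and WT. Sdc4, the syndecan that binds heparin-binding matrix proteins, was higher (1.29), at 187 CPM in TNF-Tg against 63.4, 86.6 and 76.5 CPM in tdT1, tdT2 and WT. Itgb3, the beta chain of the vitronectin receptor, was lower (−1.06), at 22.9 CPM against 36.6, 54.9 and 47.8 CPM. TNF-Tg was thus the highest of the 4 libraries for Sdc4 and the lowest for Itgb3. Lrp6 and Itgb5 had log2 ratios of −0.48 and −0.43, and the list median was −0.28. In VSMC-like cells 8 were measured too. Itgb3 (−1.30) and the scavenger and CCN receptor Lrp1 (−1.05) were lower and none was higher, beside 12.4% and 3.86% of all genes, with a median of −0.68.

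The mechanosensors, which comprise the PIEZO and TRPV4 channels, focal adhesion kinases and the RHOA to ROCK route, had 8 of 9 genes measured and none past 2-fold in LMC-like cells, with a median of −0.17. Rock2 and Rock1 stood at −0.39 and −0.33, Ilk at 0.25 and Ptk2 at −0.20. In VSMC-like cells Trpv4 was lower at −3.04, from 21 and 2 UMIs, and the median was −0.47. Rock2 was higher in LMC-like cells in the class contrast by a log2 fold change of 0.74. The genes named for LMC-like cells of TNF-Tg and WT are those of each list with the largest ratios there, and the others were chosen after their values were seen.

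**Figure D4:**
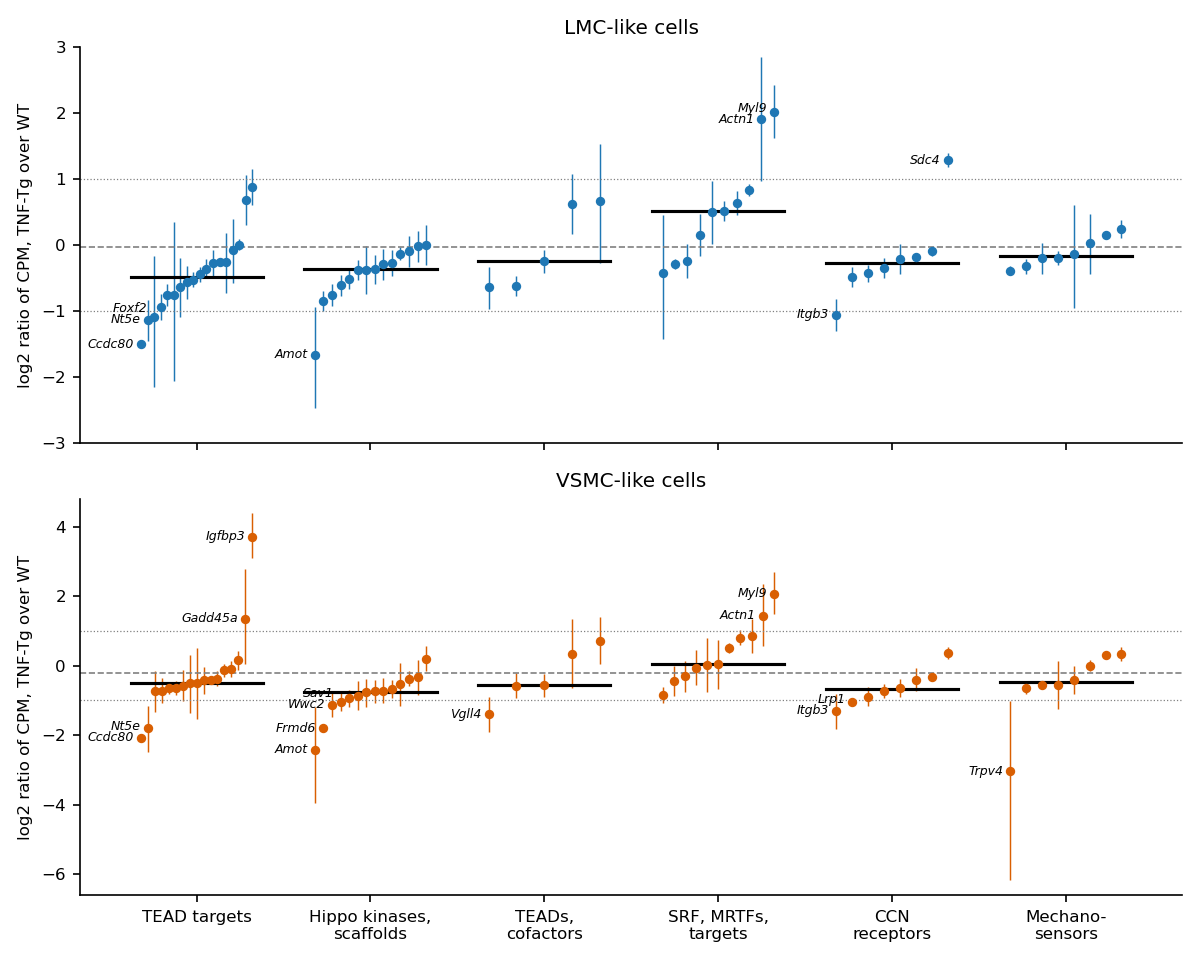
Log2 ratio of TNF-Tg over WT for the genes of 6 pathway lists in LMC-like and VSMC-like cells, with exact 95% intervals as vertical lines; black lines are list medians, the grey dashed line the median of all genes and dotted lines 2-fold. The SRF and MRTF list has a median of 0.51 in LMC-like cells and the TEAD target list one of −0.48.

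Over the 8 class and library sums, the genes whose log2(CPM + 1) followed a member most closely were Ube2d3 (Pearson's r = 0.97), Rcn2 (0.94) and Brip1os (0.94) for Ccn1, Gas6 (0.97), Tmem50a (0.96) and Penk (0.94) for Ccn5, and Mdfic (0.99), Gtf3c1 (0.98) and Setbp1 (0.97) for Wwtr1, out of 4902 genes with at least 10 UMIs in each sum. Gas6 is a gate marker of the VSMC-like class, and 4 pairs of the 8 sums share a library, so these values describe likeness only. The remaining members fell under the count minimum in at least 1 sum.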

How the data were processed

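The files hold UMI counts per gene and cell, which the authors deposited as filtered 10x matrices with no normalization (per the file headers Cell Ranger 3.1.0 for tdT1 and 6.0.1 for the other libraries; per the labels Cell Ranger 3.1 with mm10 and Seurat 4.0.3). The annotation release is not given in the sources used here, and coordinates are those of GENCODE and RefSeq on GRCm38. From these counts, cells were gated by summed marker UMIs per 10000: at least 64 of 6 stromal genes, under 4 of 6 leukocyte genes, and at least 16 in the larger of the 2 class sums of 10 markers each. The log2 ratio between the class sums, with 1 per 10000 added to each, had to exceed 1. Scrublet (scanpy 1.11.5) marked 4, 0, 137 and 74 cells of tdT1, tdT2, WT and TNF-Tg as doublets, which were kept and left out in an alternative. UMIs were summed per class and library and given as CPM. Classes were tested with edgeR 4.0.16 (R 4.3.3; TMM, filterByExpr, library block, Benjamini-Hochberg, adjusted p under 0.01), tested on simulated data: at a log2 change of 2, 97 of 100 changed genes were called, and at 1, 42 of 100, with 0 false calls among 11637 genes. The simulation used the same dispersion for every gene and the same change in every library. Its counts therefore do not carry over to genes whose class ratio differs between libraries. Same-library pairing of classes was the design. Ratios of TNF-Tg over WT used exact conditional binomial intervals (scipy 1.17.1) and no test. Shares of cells were thinned to 3000 UMIs. DESeq2 1.42.0, Seurat 5.3.0 clusters, a stricter gate, other filters and left-out libraries were alternatives. The genes named are the 8 members, Ccn6, and up to 4 genes per list with the largest ratio in LMC-like cells. Likeness named 3 genes per member. The members and lists were chosen with earlier results of these data known. Replicates are pools of 3 mice, so p-values measure the spread between these libraries.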

Additional observations from a re-analysis of the deposited data

Results flagged for a closer look

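The class ratio of 4 members pointed in different directions in different libraries, and the differences between libraries were not tested. For Ccn2 the LMC-like over VSMC-like log2 ratio was −2.56 in tdT1, −1.87 in tdT2 and −1.68 in TNF-Tg and 0.21 in WT. For Ccn1 it was above 0 in tdT1 (0.21), tdT2 (1.01) and WT (0.36) and −0.19 in the TNF-Tg library. Yap1 gave −0.51 in tdT1 and −0.20 in tdT2 against 0.19 in WT and 0.054 in TNF-Tg, and Wwtr1 gave −0.58 and −0.39 against 0.30 and 0.28.

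The log2 ratio of Ccn1 in TNF-Tg over WT was −0.47 in LMC-like and 0.086 in VSMC-like cells, opposite signs whose difference was not tested.

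A signal outside the compared classes appeared in the 36 endothelial-marked cells of tdT1, which held 159 CPM of Ccn2 (72 UMIs), 79.5 CPM of Yap1 and 250 CPM of Wwtr1, above the levels of both stromal classes of that library. The other libraries held 2 to 6 such cells, too few for a comparison.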

How the results depend on the processing

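Under the alternatives tried, 227 values stayed the same by the rule for their kind. Class contrasts had to keep their direction and their side of the threshold. Ratios and shares had to stay within their interval, tdT means within their SD, and gene counts within a set factor. Another 54 moved by more, 3 changed sign, 3 came to pass the threshold and 1 came to miss it. Sign changes of TNF-Tg over WT ratios were counted only where the main ratio was at least 2-fold. Among the 227 are the tdT means with 1 replicate left out, whose outcome was fixed in advance. With n = 2 a replicate always lies within the SD of the mean, so these values say nothing on robustness. In LMC-like cells the TNF-Tg over WT log2 ratio moved to −0.58 for Ccn1 without the top 1% of cells, to −0.29 for Ccn3 and −1.89 for Ccn5 with the stricter gate, and to −0.11 for Wwtr1 with thinned cells. The counts moved to 320 lower and 283 higher genes at a minimum of 100 UMIs, and to 308 higher with thinned cells. In VSMC-like cells Ccn1 moved to 0.27 with TMM factors, Ccn2 to −2.07 without the top 1% of cells, Ccn3 to −3.03 with the stricter gate and −0.90 with thinned cells, and Ccn5 to −1.56 with the stricter gate, −1.004 with Seurat clusters and −1.06 with TMM factors. Counts there moved to 756 lower and 243 higher at 100 UMIs and to 887 and 705 with TMM factors. In the class contrast Ccn2 passed the threshold with no filter on low counts (−0.96, adjusted p = 9.76e-05, edgeR) and in the tdT libraries alone (−2.39), and missed it with DESeq2 (−1.503, adjusted p = 0.0141). With no library block, that is without the pairing of classes within a library, Ccn5 (−1.74) missed the threshold and the counts were 151 and 204, against 737 and 928. In the tdT libraries alone the counts were 491 and 442. Ccn1 was at −0.064 and Wwtr1 at 0.15 with WT and TNF-Tg alone, and Wwtr1 at 0.055 without tdT1. Leaving out 1 library at a time gave log2 fold changes of −2.23 (without WT) to −0.55 for Ccn2 and −0.35 to 0.055 for Wwtr1, and counts of 437 to 661 higher in LMC-like cells and 497 to 797 higher in VSMC-like cells, lowest without WT. Thinning to 1500 UMIs gave a Ccn2 share of 2.35% in WT LMC-like cells, against 4.14% at 3000 UMIs. A share of cells with a UMI falls with depth by construction, and such shares are among the 54 values that moved by more. Those moves say nothing on the members. The cause of the other moves was not tested. The settings that used the tdT libraries alone, WT and TNF-Tg alone, or cells without the top 1% were chosen after seeing the data. With 473666 UMIs in its LMC-like cells, tdT2 sets the limit for scarce genes. No pairing between the tdT, WT and TNF-Tg libraries was made, since their replicate numbers share only a number.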
